A study of Mus musculus with 6 samples.

Results

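The Notch receptors, their ligands and their Hey targets were examined in the aortic valve of wild type C57BL/6J mice at postnatal day 2 (PND2), when the leaflets still grow, and at 4 months of age, when the adult valve is maintained. The 10 genes were chosen by name from the gene table, with 4 receptors (Notch1, Notch2, Notch3 and Notch4), 3 ligands (Jag1, Jag2 and Dll4) and 3 targets (Hey1, Hey2 and Heyl), out of 46983 genes in all. RNA-seq libraries were compared at 3 per age, each made from the pooled aortic valves of 5 to 6 pups or 5 to 6 adult mice, with no treatment and no mutant allele in either group. Levels are given in RPKM, reads scaled to exonic length and library total. The length counts every annotated exon base of a gene, 14232 for Notch1 and 8044 for Notch3, whichever transcripts are made. Genes can thus be set side by side per annotated length only, and comparisons between genes are approximate.

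Notch receptors are single-pass membrane proteins that are cut when a Jagged or Delta ligand on a neighbouring cell binds them. The freed intracellular domain enters the nucleus, joins the DNA-binding protein RBPJ and switches on target genes, among them the Hey and Hes transcriptional repressors. In the heart the pathway is known for its part in the formation of the endocardial cushions and the valves, and changes in NOTCH1 in humans are linked to bicuspid aortic valve and valve calcification. Notch1, Notch4 and Dll4 are best known from endothelium, and Notch3 and Heyl from vascular smooth muscle and pericytes.

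The library totals, worked out from the RPKM values, ran from 23810507 to 38994657. The members had between 329 recovered reads (Dll4) and 20135 recovered reads (Heyl) in a library. Summed over all genes, the recovered reads came to 55069102 to 90673545, above the total in every library. They are therefore not counts of distinct reads of that total. Interstitial cell markers were abundant at both ages, with a summed level of 6580 to 7215 RPKM at PND2 and 8076 to 10185 RPKM at 4 months. Of the 9 markers 2 rose and 5 fell. Markers of other cells moved with age as well. The 9 cardiomyocyte markers summed to 17341 to 19994 RPKM at PND2 and 6945 to 10659 RPKM at 4 months (4 of 9 fell), the 8 macrophage markers to 233 to 356 and 453 to 573 RPKM (6 of 8 rose), and the 6 adipocyte markers to 0.150 to 0.377 and 290.5 to 1275 RPKM (6 of 6 rose). Cidec and Lep had no reads in any PND2 library, and the highest adipocyte level was that of replicate 2 of 4 months. The part of these cells in the results below was not tested, and in bulk tissue fewer cells of a type cannot be told apart from less RNA per cell.

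All 10 genes were expressed at both ages and passed the filter of at least 0.1 RPKM in 3 libraries. By limma on log2(RPKM + 0.1), 6 of the 10 fell between PND2 and 4 months at an adjusted p under 0.05 (Notch1, Notch3, Notch4, Jag1, Dll4 and Hey1) and 0 rose. Among the 25903 genes tested, 35.8% passed this threshold, 21.1% as lower and 14.7% as higher. A fold change over 2 as well was reached by 2 of the 10, Notch3 and Notch4, both lower, against 17.2% of all genes in either direction and 8.47% as lower, and by 1 of the 10 with median scaling or voom. The median log2 fold change of the members was -0.63, beside -0.14 for all genes tested. In 7 of the 10 no library of one age reached into the range of the other, which held for 50.0% of all genes. The 6 falls kept their direction under every scaling tried. When each library was scaled by its median log2 ratio, the median of all genes moved from -0.14 to -0.02, 4601 genes were called higher and 4129 lower in place of 3810 and 5463, and Notch2 joined the called members as higher. Without PND2 replicate 3 only Notch1, Notch3 and Notch4 passed.

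**Figure D1:**
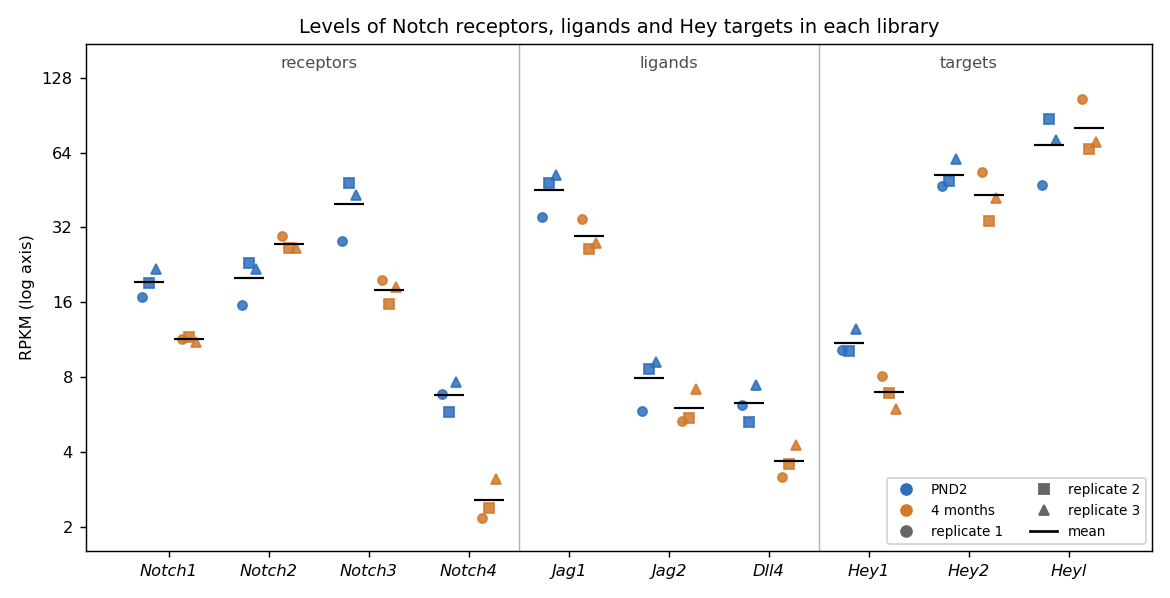
RPKM (log axis) of the 10 genes in each library, with PND2 in blue, 4 months in orange, the replicate given by the symbol and the mean of 3 libraries as a bar. Notch1, Notch3 and Notch4 lie lower in every library of 4 months, Notch2 lies higher in every library of 4 months, and the ages overlap for Jag2, Hey2 and Heyl.

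The order of the members changed with age. At PND2 the mean level fell from Heyl (68.8 RPKM) through Hey2, Jag1 and Notch3, whose neighbours in the order overlapped in their libraries, to Dll4 (6.29 RPKM). Notch3 stood above Notch2 without overlap, and Notch2 and Notch1 overlapped. At 4 months Heyl (80.6 RPKM) stood clear of Hey2, Notch2 overlapped with Jag1 and stood clear of Notch3, and Notch4 (2.55 RPKM) took the lowest place, below Dll4 in every library.

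Among the receptors, 3 fell, and Notch2 had a positive difference that missed the threshold. Notch3 (ENSMUSG00000038146, chromosome 17 of mm10 from 32120820 to 32166880, minus strand) was the most abundant receptor at PND2. Its level was 28.1, 48.2 and 43.2 RPKM in the PND2 libraries and 19.6, 15.8 and 18.5 RPKM in those of 4 months. PND2 replicate 1 was the lowest of its age but still above every library of 4 months. The mean fell 2.22-fold, from 39.8 ± 10.4 (SD, n = 3) to 18.0 ± 1.96 RPKM, which is -1.11 ± 0.20 (standard error) in log2 with a limma adjusted p of 0.0057. Gm17276 on the opposite strand shares 6.07% of its exonic length.

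Notch4 (ENSMUSG00000015468, chromosome 17 from 34564268 to 34588503, plus strand) had the largest fold change of the 10 genes and the lowest level of the receptors. It measured 6.83, 5.80 and 7.62 RPKM at PND2 and 2.16, 2.38 and 3.12 RPKM at 4 months, and the ages did not overlap. The fall was 2.64-fold, from 6.75 ± 0.909 to 2.55 ± 0.505 RPKM, or -1.38 ± 0.20 in log2 (limma adjusted p = 0.0022). It was the only member called in all 16 alternative fits.

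Notch1 (ENSMUSG00000026923, chromosome 2 from 26457903 to 26516663, minus strand) had 16.9, 19.2 and 21.7 RPKM at PND2. At 4 months its level was 11.4, 11.6 and 11.1 RPKM, the tightest spread of any member at either age. The libraries of 4 months all lay below those of PND2, and the mean dropped 1.70-fold, from 19.3 ± 2.40 to 11.3 ± 0.239 RPKM (log2 fold change -0.75, standard error 0.12, limma adjusted p = 0.0033). Of its exonic length 9.76% is shared with 0610009E02Rik and Gm13568 on the opposite strand, and whether the counting used strand is not given in the sources used here.

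Notch2 (ENSMUSG00000027878, chromosome 3 from 98013527 to 98150361, plus strand) was at 15.6, 23.0 and 21.8 RPKM at PND2 and at 29.6, 26.4 and 26.5 RPKM at 4 months. The ages did not overlap, with all of the 4 months libraries on the higher side. Its exons share 5.02% of their length with Gm42820 on the same strand. The difference of 1.37-fold, from 20.1 ± 3.98 to 27.5 ± 1.79 RPKM, had a log2 value of 0.47 (95% confidence interval 0.10 to 0.84) and missed the threshold (limma adjusted p = 0.055). Without PND2 replicate 1 it was 0.30 (adjusted p = 0.064). In the 16 alternatives its adjusted p ran from 0.0068 to 0.218, and 5 of them passed. These were median scaling (0.016), quantile normalization (0.021), voom on the recovered reads (0.0068), a filter at 1 RPKM (0.048) and the fit without PND2 replicate 2 (0.045).

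The leading receptor therefore differed between the ages. Notch3 exceeded Notch2 in each PND2 library, with Notch2 at 0.554, 0.477 and 0.504 of the Notch3 level. At 4 months Notch2 was at 1.51, 1.67 and 1.44 times the level of Notch3 in replicates 1 to 3. As a share of the summed receptor RPKM in a library, Notch2 was 23.4 ± 0.473% at PND2 and 46.4 ± 1.33% at 4 months, and Notch3 was 45.9 ± 4.19% and 30.2 ± 1.79%. The ages did not overlap in either share (2-sided exact permutation test, p = 0.1 for each, the smallest that 3 libraries against 3 allow). The share of Notch4 was 8.08 ± 2.05% and 4.32 ± 0.919%, also without overlap (exact permutation p = 0.1), and that of Notch1 overlapped at 22.7 ± 2.56% and 19.1 ± 1.26% (exact permutation p = 0.2). As a share of whole reads in place of RPKM, the ages did not overlap for Notch1. The 4 receptors summed to 67.4, 96.2 and 94.2 RPKM at PND2 and to 62.8, 56.2 and 59.2 RPKM at 4 months, where PND2 replicate 1 came close to the adult libraries.

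**Figure D2:**
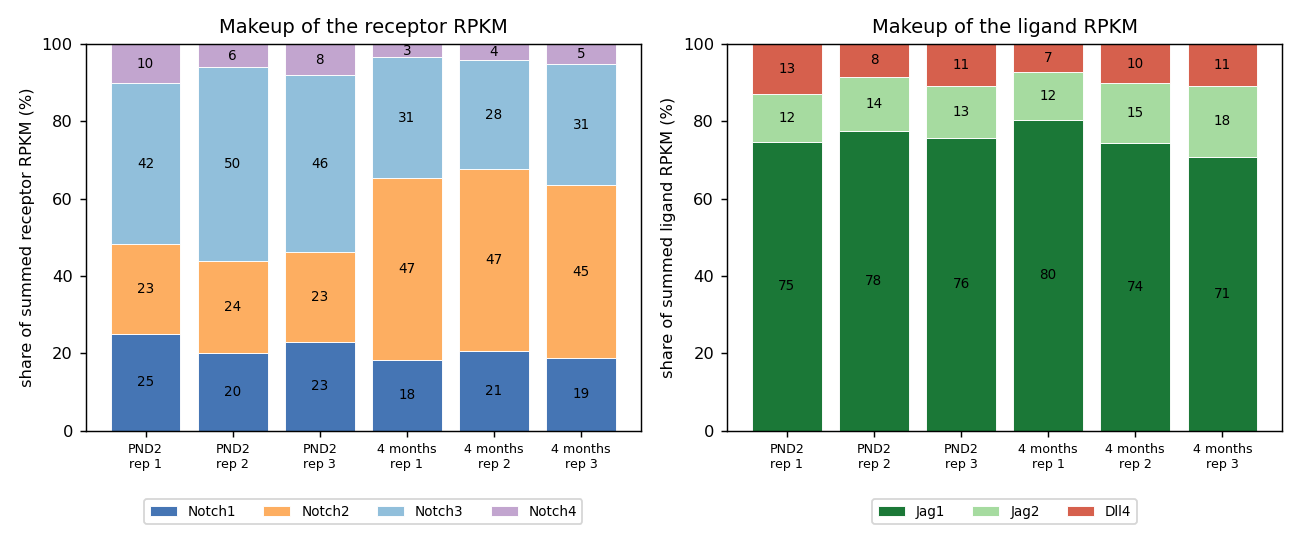
Share (%) of each receptor in the summed receptor RPKM (left) and of each ligand in the summed RPKM of Jag1, Jag2 and Dll4 (right), with 1 bar per library. The Notch2 share of 23.1 to 23.9% at PND2 stands against 44.8 to 47.2% at 4 months. Jag1 holds 70.9 to 80.3% of the ligand sum in all 6 libraries, and Dll1 is not part of that sum.

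The exon table gave the same direction along the length of the receptor genes. Exon entries, some of which overlap because transcripts differ in their ends, were used when they had at least 1 RPKM in 3 libraries. The ratio of mean RPKM was lower at 4 months in 48 of 48 entries of Notch1, 33 of 33 of Notch3 and 63 of 63 of Notch4, and higher in 42 of 42 of Notch2. The median log2 ratio over entries was -0.83, -1.20, -1.50 and 0.44. The Notch3 entries were the most even, from -1.68 to -0.90. In Notch4 they ran from -2.49 to -0.39. The entry nearest to 0, 123 bases from 34583882 to 34584004, had a mean of 4.37 RPKM at PND2 and 3.34 RPKM at 4 months, whereas the entry of 160 bases from 34573749 to 34573908 had 9.74 and 1.73 RPKM. Exons that share no base with another gene gave a median of -0.83 over 47 entries for Notch1, -1.21 over 31 for Notch3 and 0.46 over 39 for Notch2. Exons of a gene come from the same libraries and are no replicates, so these counts carry no test.

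**Figure D3:**
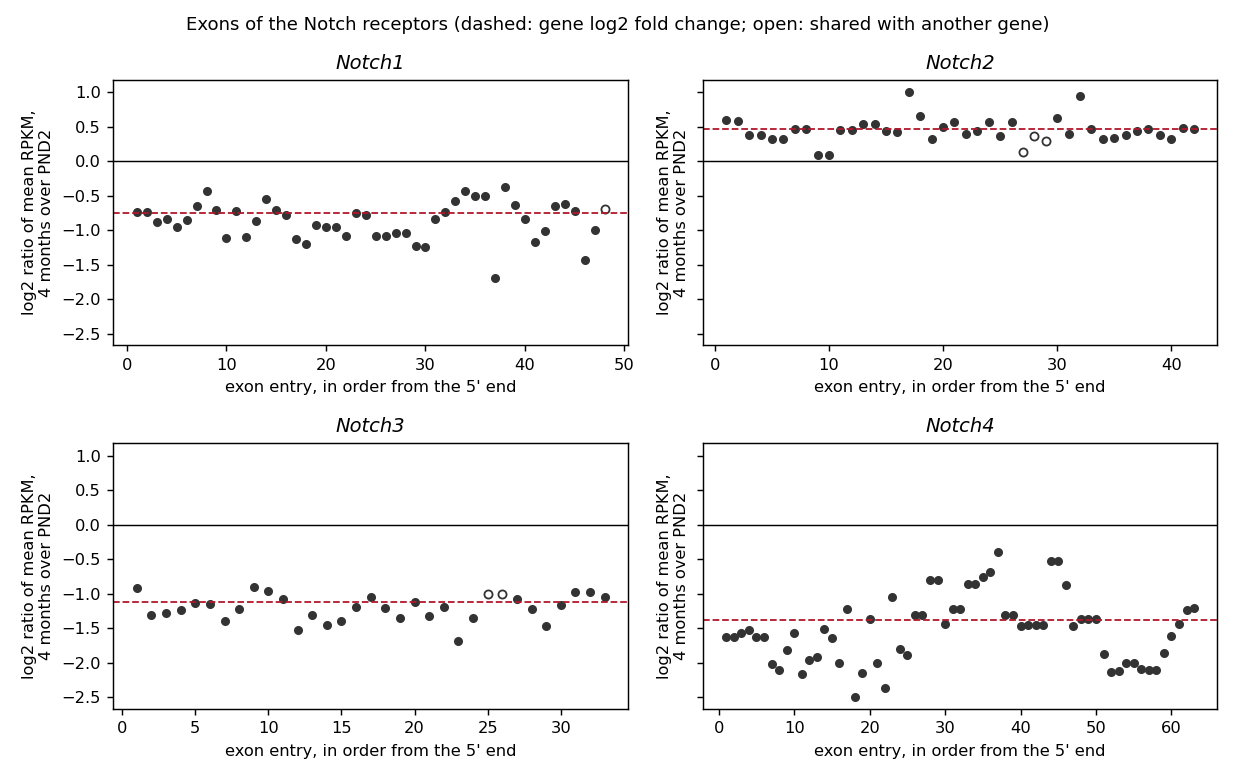
Log2 ratio of mean RPKM, 4 months over PND2, for each exon entry of the 4 receptors in order from the 5′ end, with the gene's log2 fold change dashed and entries shared with another gene open. All points of Notch1, Notch3 and Notch4 lie below 0 and all points of Notch2 lie above it, and Notch4 is the most uneven, from -2.49 to -0.39.

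Of the ligands, Jag1 and Dll4 fell and Jag2 did not pass the test. Jag1 (ENSMUSG00000027276, chromosome 2 from 137081456 to 137116644, minus strand), a Jagged ligand needed in valve and outflow tract development, was the most abundant ligand at both ages. It measured 35.4, 48.1 and 52.0 RPKM at PND2 and 34.7, 26.3 and 27.8 RPKM at 4 months. PND2 replicate 1 and replicate 1 of 4 months nearly met, but the ages did not overlap. The mean dropped from 45.1 ± 8.68 to 29.6 ± 4.49 RPKM, or by 0.60 in log2 (standard error 0.17, limma adjusted p = 0.032). This call was lost in 7 of 16 alternatives. Without PND2 replicate 2 or 3, or replicate 2 or 3 of 4 months, its adjusted p was 0.090, 0.103, 0.093 and 0.098, and over all alternatives it ran from 0.0095 to 0.138.

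Dll4 (ENSMUSG00000027314, chromosome 2 from 119325784 to 119335962, plus strand), the Delta ligand of arterial endothelium and sprouting vessels, had 6.15, 5.27 and 7.44 RPKM at PND2. At 4 months it was at 3.16, 3.59 and 4.25 RPKM, below the PND2 libraries without overlap. The fall from 6.29 ± 1.10 to 3.67 ± 0.549 RPKM was 1.71-fold (log2 fold change -0.76, standard error 0.19, limma adjusted p = 0.021). The adjusted p was 0.075 without PND2 replicate 3, 0.060 without replicate 1 of 4 months and 0.055 without replicate 2 of 4 months, within a range of 0.015 to 0.075 over the alternatives. A stretch of 5.56% of its exonic length is shared with Gm14207 on the opposite strand.

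Jag2 (ENSMUSG00000002799, chromosome 12 from 112908590 to 112929495, minus strand) measured 5.86, 8.63 and 9.22 RPKM at PND2 and 5.35, 5.47 and 7.17 RPKM at 4 months. The ages overlapped, with PND2 replicate 1 below replicate 3 of 4 months. Its log2 difference was -0.38 (95% confidence interval -0.88 to 0.12, limma adjusted p = 0.213), and without PND2 replicate 1 it was -0.58 with an adjusted p of 0.047, the lowest of a range up to 0.474. The shares of the summed RPKM of Jag1, Jag2 and Dll4 overlapped between the ages. Dll1 (6.07 RPKM at PND2 and 7.18 RPKM at 4 months), described below, was left out of this sum. Jag1 held 76.0 ± 1.48% at PND2 and 75.2 ± 4.76% at 4 months (exact permutation p = 0.8), Jag2 13.2 ± 0.794% and 15.4 ± 2.95% (p = 0.3) and Dll4 10.8 ± 2.24% and 9.44 ± 1.87% (p = 0.4). Exon entries of Jag1 (31 of 31) and Dll4 (15 of 15) were lower at 4 months, and so were 20 of 25 of Jag2.

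The 3 Hey genes, basic helix-loop-helix repressors that RBPJ and Notch switch on directly, gave 1 call, for Hey1. Hey1 (ENSMUSG00000040289, chromosome 3 from 8663359 to 8667256, minus strand) was the least abundant. Its levels were 10.3, 10.2 and 12.5 RPKM at PND2 and 8.09, 6.89 and 5.95 RPKM at 4 months, without overlap. The drop in the mean was 1.58-fold, 11.0 ± 1.30 against 6.98 ± 1.08 RPKM (-0.66 ± 0.16 in log2, limma adjusted p = 0.017). All 15 of its exon entries were lower at 4 months. The adjusted p was 0.066 without PND2 replicate 3 and 0.058 without replicate 3 of 4 months, and ran from 0.013 to 0.076 over the alternatives.

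Hey2 (ENSMUSG00000019789, chromosome 10 from 30832359 to 30842801, minus strand) measured 47.1, 49.2 and 60.1 RPKM at PND2 and 53.3, 33.9 and 41.9 RPKM at 4 months. Replicate 1 of 4 months lay within the PND2 range. The log2 difference was -0.29 with a 95% confidence interval of -0.71 to 0.12 (limma adjusted p = 0.245), and no alternative called it (lowest adjusted p 0.067). The difference was -0.46 without replicate 1 of 4 months, -0.13 without replicate 2 of 4 months and -0.19 without PND2 replicate 3.

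Heyl (ENSMUSG00000032744, chromosome 4 from 123233556 to 123249875, plus strand) was the most abundant of the 10 genes at both ages and the most variable between replicates. It had 47.3, 87.4 and 71.7 RPKM at PND2 and 105, 66.2 and 70.3 RPKM at 4 months, and the ages overlapped widely. PND2 replicate 1 was the lowest library and replicate 1 of 4 months the highest. The log2 difference of 0.24 (95% confidence interval -0.37 to 0.85, limma adjusted p = 0.510) became -0.0061 without PND2 replicate 1 and 0.033 without replicate 1 of 4 months, so its size and direction rest on these libraries.

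The same library was the lowest of its age for 7 of the 10 members (Notch1, Notch2, Notch3, Jag1, Jag2, Hey2 and Heyl). PND2 replicate 1 also had the lowest PND2 sum of the smooth muscle and mural markers (7670 RPKM, against 8922 and 8951 RPKM). In it the pericyte gene Rgs5 was at 109 RPKM, against 202 and 203 RPKM in the other PND2 libraries. Pdgfrb (64.2, against 95.5 and 83.4 RPKM) and Kcnj8 (7.60, against 10.3 and 11.0 RPKM) of this list were lowest too. So was Cspg4 (34.7, against 62.2 and 39.6 RPKM). In the list only Lmod1 (47.6, against 52.2 and 41.1 RPKM) and Myocd (25.0, against 25.5 and 23.9 RPKM) were not lowest in this library. The interstitial (6580, against 7215 and 6996 RPKM) and cardiomyocyte markers (17341, against 18495 and 19994 RPKM) were lowest there too. The endothelial (1125, against 922 and 1225 RPKM) and macrophage markers (356, against 233 and 301 RPKM) were not. How many of all genes were lowest in this library was not counted. The part of these differences in the levels of those members was not tested.

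The sequence before the start of transcription was searched for the RBPJ motif GTGGGAA on both strands, since RBPJ is the protein that brings Notch to its targets. RefSeq (GRCm38.p6, the assembly that mm10 names) gave the 250 bases before the start for 8 of the 10 members (not Hey1 and Heyl) and for 46 of the other 56 pathway genes. Of the members Hey2 alone held the motif, as did 5 of the other pathway genes (Lfng, Psen2, Spen, Hes5 and Hes7). Of all 32851 such windows 5.42% held it. Some pathway genes, Psen2 among them, have more than 1 window, so the count of genes and the share of windows are unlike measures. The stretches of Hey2, the most abundant member with an entry, and of Lfng, the Notch glycosyltransferase described below, are shown with the motif in capitals. The window of Hey2 is chr10:30842784-30843033 on the minus strand, with the motif starting 207 bases before the start as its reverse complement. That of Lfng is chr5:140607091-140607340 on the plus strand, with the motif 109 bases before the start, where it overlaps the letters CACGTG.
Hey2: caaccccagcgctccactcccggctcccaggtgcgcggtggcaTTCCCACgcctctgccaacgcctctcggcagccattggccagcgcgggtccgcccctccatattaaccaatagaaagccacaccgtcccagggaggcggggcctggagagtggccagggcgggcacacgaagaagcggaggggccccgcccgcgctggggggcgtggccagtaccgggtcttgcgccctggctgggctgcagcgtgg
Lfng: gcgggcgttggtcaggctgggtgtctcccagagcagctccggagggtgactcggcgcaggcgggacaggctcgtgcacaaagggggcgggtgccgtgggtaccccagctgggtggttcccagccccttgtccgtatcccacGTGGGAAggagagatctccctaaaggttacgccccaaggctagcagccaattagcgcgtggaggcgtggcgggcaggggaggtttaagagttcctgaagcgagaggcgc
The E-box letters CACGCG, a form that Hes and Hey proteins can bind, were present in the windows of Notch2, Jag1 and Dll4 and in 7.62% of all windows, and CACGTG in 0 of the 8 member windows and 6.02% of all. Such matches describe letters only and not binding.

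Of the other pathway genes, 55 of 56 were tested, and 20 passed, 7 as higher and 13 as lower at 4 months. Of all genes 35.8% passed, 14.7% as higher and 21.1% as lower, and the counts by role below are read beside these shares. Dll3 had no reads in any library. For scale, 3 recovered reads on its exonic length would be 0.0270 to 0.0442 RPKM, depending on the library. The median log2 fold change was -0.05. With voom on the recovered reads 12 were higher and 13 lower, and with median scaling 11 and 13, but there was 1 higher beside 12 lower with a replicate block or without PND2 replicate 3, 1 beside 14 without replicate 1 of 4 months, 1 beside 8 with the per-gene unequal-variance test, and 3 beside 14 with no trend. Without 1 library the higher calls numbered 1 to 4. Of the 7, Dtx4 was called in 15 of 16 alternatives, Aph1c in 10, Rbpj in 9, Maml2 and Mib2 in 8, Aph1b in 6 and Dtx3 in 5.

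The fringe enzymes, which add sugars to the receptor and set which ligands it answers to, gave 1 call among 3, for Lfng. Lfng fell in all libraries, from 14.9, 13.7 and 20.1 RPKM at PND2 to 5.19, 4.76 and 4.55 RPKM at 4 months, a 3.35-fold drop (log2 fold change -1.71, standard error 0.17, limma adjusted p = 4.5e-04). Mfng had a log2 difference of -0.51 (adjusted p = 0.162) and Rfng one of 0.39 (adjusted p = 0.206). The O-fucosyltransferase Pofut1 and the O-glucosyltransferase Poglut1, which prepare the receptor for them, did not pass either (log2 differences 0.21 and 0.34, limma adjusted p = 0.326 and 0.058).

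Of the 10 genes for cutting the receptor, 4 fell and 2 rose (21.1% and 14.7% of all genes). Furin, which processes the receptor on its way to the surface, dropped from 34.3 ± 2.85 to 19.8 ± 1.56 RPKM (log2 fold change -0.79, limma adjusted p = 0.0018). Adam10, which makes the cut outside the membrane after ligand binding, dropped from 62.7 ± 6.14 to 34.7 ± 3.55 RPKM (log2 fold change -0.85, adjusted p = 0.0017), whereas Adam17 had 16.9 ± 1.93 and 17.0 ± 1.27 RPKM (log2 difference 0.01, 95% confidence interval -0.28 to 0.29). Within γ-secretase, the complex that frees the intracellular domain, Ncstn and Aph1a fell (log2 fold changes -0.59 and -0.60, adjusted p = 0.0027 and 0.0035 by limma). Aph1b and Aph1c rose (0.41 and 0.65, adjusted p = 0.049 and 0.028), although these are near-identical genes between which reads can be split, and Aph1b passed narrowly. Psen2 and Psenen did not pass, with log2 differences of 0.26 and 0.21.

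At the level of ligand and receptor traffic, 3 of 12 genes rose and 1 fell (14.7% and 21.1% of all genes). Neurl1b, a ubiquitin ligase for ligands, dropped from 3.15 ± 0.697 to 1.03 ± 0.0643 RPKM (log2 fold change -1.50, limma adjusted p = 0.0031). Dtx4 rose from 5.16 ± 0.507 to 9.64 ± 2.26 RPKM (0.87, adjusted p = 0.011), and Mib2 and Dtx3 rose by 0.46 and 0.47 on the log2 scale (adjusted p = 0.039 and 0.0499). Numb, which restrains the receptor, had 24.7 ± 1.32 and 26.7 ± 1.27 RPKM (log2 difference 0.11, adjusted p = 0.388).

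In the nucleus, Rbpj itself rose 1.32-fold, from 10.2, 11.4 and 11.7 RPKM at PND2 to 15.4, 14.3 and 14.2 RPKM at 4 months (log2 fold change 0.40, standard error 0.11, limma adjusted p = 0.027). Its adjusted p ran from 0.0016 to 0.085 over the alternatives, and it was above 0.05 without any 1 library other than PND2 replicate 1. The coactivator Maml2 rose by 0.42 (adjusted p = 0.036), and the other 5 of the 7 coactivator and DNA-binding genes did not pass. Among 12 corepressors 3 fell and 0 rose, where 21.1% of all genes fell and 14.7% rose, so the falls are near the share of all genes. Hdac2 had the firmest of these falls, from 60.0 ± 0.368 to 33.1 ± 2.17 RPKM (log2 fold change -0.86, adjusted p = 4.8e-04 by limma), and Tle1 and Ctbp2 fell by 0.68 and 0.51 on the log2 scale (adjusted p = 0.012 and 0.026).

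Of 5 further targets, 3 fell, where 21.1% of all genes did. Hes1, a repressor of the same family as the Hey genes, was at 29.4, 30.9 and 30.1 RPKM at PND2 and at 22.5, 18.3 and 19.2 RPKM at 4 months, without overlap (log2 fold change -0.59, standard error 0.11, limma adjusted p = 0.0051). Nrarp, which acts back on the receptor's intracellular domain, dropped 2.05-fold, from 10.3 ± 1.52 to 5.04 ± 0.156 RPKM (adjusted p = 0.0024), but 79.4% of its exonic length is shared with Gm38287 on the opposite strand. Hes6 fell from 23.1 ± 3.62 to 12.8 ± 2.21 RPKM (log2 fold change -0.85, adjusted p = 0.0078). Hes5 and Hes7 stayed at or below 1.51 RPKM in every library and did not pass.

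Among the other ligands Dlk1, a Delta-like protein without the domain that activates the receptor, fell by 6.43 on the log2 scale (limma adjusted p = 3.2e-05). Dll1, another Delta ligand, which shares 20.5% of its exonic length with A930024N18Rik on the opposite strand, had 6.07 ± 0.814 RPKM at PND2 and 7.18 ± 0.840 RPKM at 4 months (log2 difference 0.24, 95% confidence interval -0.13 to 0.62). The low genes Dlk2 and Dner had differences of -1.24 and 1.30 that did not pass (adjusted p = 0.065 and 0.071).

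**Figure D4:**
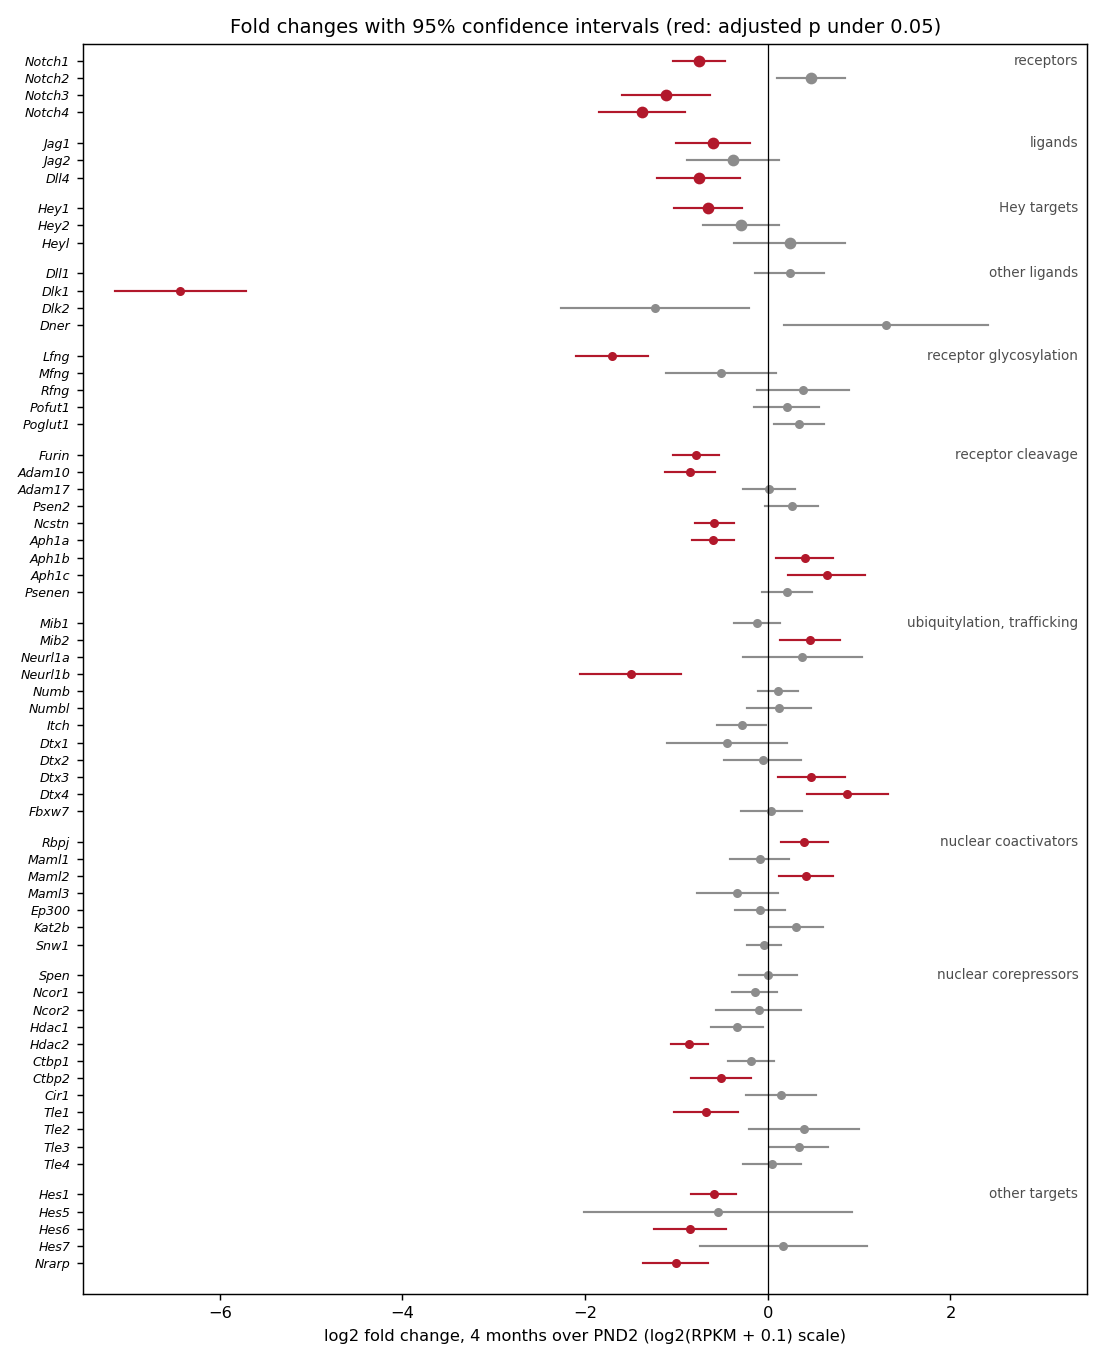
Log2 fold change, 4 months over PND2, with its 95% confidence interval by limma for the 10 members (large points) and the other pathway genes reported (small points) by role, with an adjusted p under 0.05 in red. The 6 called members lie between -1.38 and -0.60, and the called genes of the other roles lie on either side of 0.

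Markers of the cells from which several of these genes are best known also moved. Of the 14 endothelial markers 12 fell and 0 rose, and their summed level was 922 to 1225 RPKM at PND2 and 564 to 573 RPKM at 4 months. Their median change was -0.82 in log2. None of them was at 0. Of the 12 smooth muscle and mural markers 9 rose and 1 (Rgs5) fell, from a sum of 7670 to 8951 RPKM to one of 17134 to 28206 RPKM, with a median of 1.12. Each member was therefore also set against the mean log2 level of either list in its own library.

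Such a scale moves every gene by the same amount in a library, so each count is read against all genes on that scale. Relative to the endothelial markers, whose mean log2 level was 0.95 lower at 4 months, the median of all genes tested was 0.82 higher, and the ages did not overlap as higher in 63.1% of all genes and as lower in 4.05%. Of the 10 members 4 were higher without overlap (Notch2, Heyl, Hey2 and Jag2, by 1.42, 1.19, 0.66 and 0.57) and 1 was lower, Notch4, by 0.42. Of these, Notch2 and Heyl lay above the median of all genes and Hey2 and Jag2 below it. Notch1, Jag1, Dll4 and Hey1 had differences of 0.20, 0.35, 0.20 and 0.30 and Notch3 one of -0.16, with overlapping ages. The median of the markers in place of their mean gave 8 members as higher and 0 as lower without overlap (71.5% and 3.09% of all genes), Notch4 at -0.24 with overlapping ages and Notch3 at 0.03. A pseudocount of 1 gave 6 and 0, with Notch4 at -0.19 and overlapping, and without PND2 replicate 2 there were 7 higher and 1 lower.

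Relative to the smooth muscle and mural markers, whose mean log2 level was 1.11 higher at 4 months, all 10 members were lower without overlap, and so were 74.1% of all genes (3.89% were higher). The median of all genes was -1.24 on this scale. With the median of the markers the 10 were again lower without overlap, as were 65.6% of all genes, with 5.05% higher. The members ran from -0.64 for Notch2 to -2.48 for Notch4. Notch3 and Heyl, best known from vascular smooth muscle and pericytes, were at -2.22 and -0.87. Which cells carried them in these valves was not measured. How far cell makeup sets the members' levels was not tested.

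**Figure D5:**
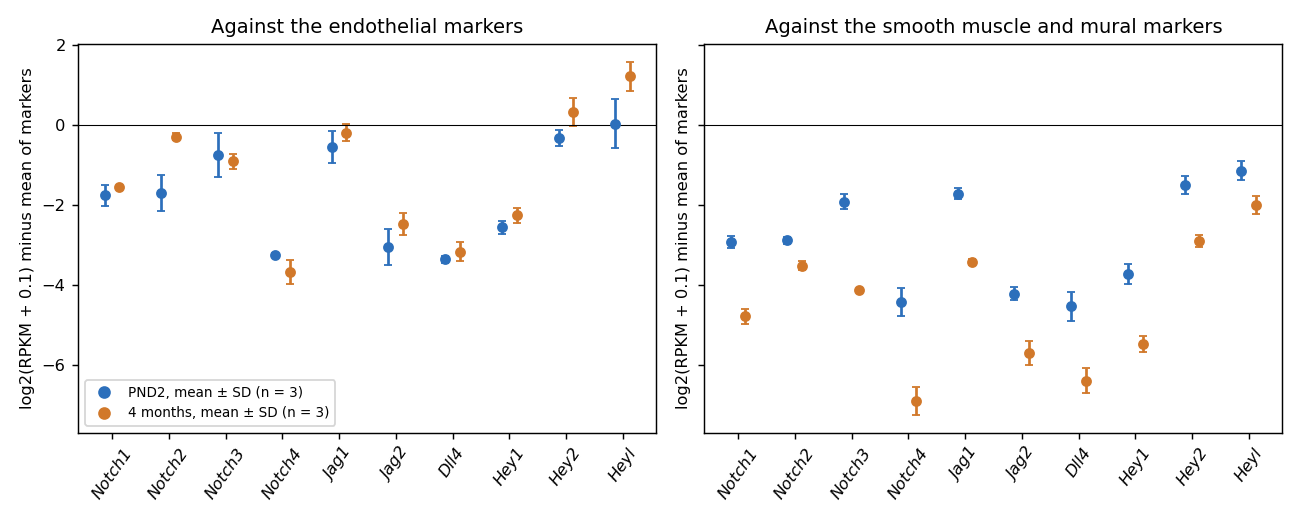
Level of each member, log2(RPKM + 0.1), minus the mean of the endothelial markers (left) or of the smooth muscle and mural markers (right) in the same library, as mean ± SD of 3 libraries per age. On the left the median of all genes tested is 0.82 higher at 4 months and Notch2 is 1.42 higher, and on the right all 10 members are lower, as are most genes.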

How the data were processed

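RNA was taken from aortic valves at PND2 and at 4 months, with 3 libraries per age, taken as independent samples. Per the study's methods, reads were trimmed, mapped by TopHat 2.1.0 against mm10 and assigned to Ensembl exons and genes by easyRNASeq, so the authors' deposited tables hold RPKM. Libraries came from a stranded kit. Of 46983 genes, 14027 had no reads. The library total was set so that the smallest exon value above 0 was 1 read. RPKM times exonic length and this total gave whole numbers (within 0.01) for 100% of gene values above 0. These are the recovered reads, and their sum exceeded the total in every library. Genes with at least 0.1 RPKM in 3 libraries were fitted by limma 3.58.1 (R 4.3.3). The response was log2(RPKM + 0.1) under a trended eBayes prior, with 2-sided p-values adjusted by Benjamini-Hochberg over all genes tested. Fold changes on this scale understate those of low genes. Tables, exact permutation tests and figures were made with Python 3.11.15, pandas 2.3.3, numpy 2.4.6, scipy 1.17.1 and matplotlib 3.10.9. All members and any gene of the pathway lists could be named. The members, pathway and marker lists were chosen with earlier results of these data known. The fits were run on simulated counts in which few genes were changed, unlike in these data, so this checked the code only. Alternatives were pseudocounts, filters, scalings, no trend, voom on recovered reads with TMM, an unequal-variance test of each gene by itself (as the study used) on that log2 scale, a replicate block, and each library left out. The values of 1 pathway gene are not reported here, though it stays in the counts.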

Additional observations from a re-analysis of the deposited data

How the results depend on the processing

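With the per-gene unequal-variance test 1 member (Notch4), 9 pathway genes and 3408 of all genes were called, in place of 6, 20 and 9273. Leaving out 1 library gave 3 to 7 members (3 without PND2 replicate 3), 13 to 19 pathway genes and 6301 to 8581 of all genes. With a replicate block 4 members (all but Jag1, adjusted p = 0.080, and Hey1, adjusted p = 0.055) and 13 pathway genes (1 higher, 12 lower, in place of 7 and 13) were called. The replicate numbers gave no sign of pairing. The deviations of same-numbered libraries from their age means correlated at 0.044, -0.061 and -0.160 across genes. Of the 6 libraries 0 matched best with their own number. With 3 libraries per age this check cannot show that the libraries are unpaired. As a share of whole reads the Notch1 difference in receptor share was -6.00 percentage points, in place of -3.52, and its ages no longer overlapped. Of the members set against the endothelial markers 8 (8 higher, 0 lower, so that Notch4 overlapped) did not overlap with the median of the markers and 5 to 8 when a library was left out, in place of 5 (4 higher, 1 lower). The log2 difference of Heyl was -0.0061 without PND2 replicate 1, 0.033 without 4 months replicate 1 and up to 0.44 otherwise. The causes were not tested beyond the fewer libraries or the scale that each alternative uses. The other members kept their direction under all alternatives.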
